A study of Mesocricetus auratus with 11 samples.

Results

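The CpGs described here are the most deeply read ones of a bisulfite sequencing study of Syrian hamster (Mesocricetus auratus) cells. A CpG was taken when it had 10 or more reads in all 11 libraries and a median of 300 or more reads over them, with the forward and reverse position of the CpG summed and the mitochondrial sequence left out. This gave 1793 CpGs, 2.21% of the 81289 CpGs with 10 or more reads in every library, out of 2010826 CpGs listed in at least 1 library. A further 8 CpGs had a median of 300 or more reads but not 10 in every library and were left out. Depth alone chose the CpGs, and methylation levels took no part.

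The assay, reduced representation bisulfite sequencing, reads fragments of enzyme-cut DNA after bisulfite has converted unmethylated cytosines, and so covers a CpG-rich fraction of the genome. The 4 primary libraries came from stocks of different female fetuses (13.5 days of gestation), untreated and kept less than 3 days in culture; with head, viscera and limbs removed, they mix ectodermal and mesodermal cells such as those of skin, muscle and bone. The 7 MT2 libraries came from a female cell line grown from a colony transformed by benzo[a]pyrene (5 µg/mL) that had bypassed senescence, at an estimated passage of 28. Of these, 4 were plates given 0.05% DMSO as vehicle and 3 were plates given 5 µM 5-aza-2'-deoxycytidine (5aCdR), both for 48 h. The MT2 plates were seeded from 1 thawed stock of 1 line, so p-values within MT2 measure the spread between plates, and a difference between MT2 and primary cells is a difference between this line and 4 fetuses.

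Methylation of CpGs is copied onto the new DNA strand after replication by a maintenance methyltransferase, and repeated sequence is generally kept methylated in mammalian somatic cells. 5aCdR is built into replicating DNA and traps DNA methyltransferases there, so that methylation is lost as cells divide. Transformed cells commonly lose methylation over repeats and sparse CpGs and gain it at some dense ones.

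A library held a median of 322 to 697 reads at these CpGs, out of 17804710 to 46082669 reads over all its non-mitochondrial CpGs. The median depth of the CpGs was 462 reads (quartiles 359 and 743), against 47 for all CpGs with 10 or more reads in every library, and the deepest had 82287. Of the 1793, 1005 had fewer than 500 reads, 458 had 500 to 1000, 277 had 1000 to 5000 and 53 had 5000 or more. The 20 CpGs of 10000 or more reads lay in 7 places. Near the limit, a CpG of 300 reads at 25899749 of scaffold KB708131.1 was at 66.5% in primary cells, 31.7% with vehicle and 29.9% after 5aCdR. A CpG of 299 reads just outside, at 24181693 of KB708133.1, was at 47.2%, 11.9% and 13.8%. Mitochondrial CpGs, a check of conversion, were called methylated in 2.26% to 2.59% of reads after 5aCdR, 2.48% to 3.56% with vehicle and 3.73% to 4.97% in primary cells.

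The deep CpGs lay on 315 scaffolds and formed 1030 loci, a locus being a run of such CpGs with gaps of at most 300 bp. A single CpG made up 668 loci (64.9%), 201 loci held 2, and 161 held 3 or more, up to 40. Scaffolds whose last listed position was below 20 kb held 7.75% of the deep CpGs and 3.45% of CpGs of 20 to 100 median reads. Their surroundings were sparser, with a median of 5 CpGs covered in any library within 250 bp on each side against 8, the CpG itself included. Of the 1793, 1263 were listed on the same single strand throughout and 183 on both strands in all 11 libraries. Where both strands were listed, their levels differed by a median of 10.5 percentage points, and by more than 20 points at 58 of the 183. Depth of this kind can come from repeated sequence that an assembly holds only once or a few times, and a level is then a mean over copies. No genome sequence of these scaffolds was used here, so copy number was not tested and the CpGs could not be tied to a repeat family or gene.

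The spread between libraries exceeded that of read counting. At CpGs between 20 and 80%, the SD between libraries had a median of 7.12 percentage points over the 4 vehicle plates, 5.26 over the 3 5aCdR plates and 7.65 over the 4 fetuses. Independent reads at these depths would have given 2.26, 1.82 and 2.38. At CpGs of 20 to 100 reads the corresponding SDs were 29.7, 20.7 and 29.0 points, where independent reads would have given 8.12, 6.16 and 8.03. The excess was thus not particular to deep CpGs. Intervals from read counts are not given for this reason. Reads without molecular identifiers need not be independent molecules, and their part in the excess was not tested.

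The first comparison set MT2 cells with vehicle against primary cells. Deep CpGs were much less methylated in MT2. The mean level was 58.8%, 58.2%, 58.4% and 58.4% in the primary libraries and 47.2%, 47.2%, 47.3% and 47.1% in the vehicle libraries. Each vehicle library lay below each primary library, and the groups did not overlap. The group levels of 47.2% ± 0.0580 (SD, n = 4) for vehicle and 58.5% ± 0.290 (SD, n = 4) for primary cells lay -11.3 percentage points apart (exact two-sided permutation test, p = 0.0286, the smallest that 70 splits allow; 0.0286 after Benjamini-Hochberg adjustment over the 3 comparisons of groups).

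CpGs of 20 to 100 median reads, 68820 in number, differed much less. Vehicle was at a mean of 36.5% ± 0.0795 (SD, n = 4) there, and primary cells were at 38.8% ± 0.213 (SD, n = 4), so the groups were -2.30 points apart. When they were weighted to the deep CpGs' distribution over 12 classes of vehicle level, they were at 47.3% ± 0.170 (SD, n = 4) with vehicle and at 49.5% ± 0.257 (SD, n = 4) in primary cells, where the deep CpGs were at 58.5%. For the test, the classes were taken from the 5aCdR libraries, which are neither side of this comparison but are MT2 plates of the same stock as vehicle. Deep CpGs then stood 8.08 ± 0.232 points (SD, n = 4) above the matched CpGs in primary cells and -0.929 ± 0.0910 points (SD, n = 4) from them with vehicle. The difference between both was -9.01 points (exact permutation test, p = 0.0286, adjusted p = 0.0286). It was -8.96 points without any matching, -6.94 points against CpGs of 50 to 100 reads and -6.20 points with at least 20 reads in every library. With classes of primary level, itself a side of this comparison, deep CpGs stood -4.87 ± 0.120 points (SD, n = 4) from the matched CpGs with vehicle. In primary cells they then stood -0.00728 ± 0.151 points (SD, n = 4) from them. The size of the difference thus depended on the group used for matching, and it was smallest with primary level.

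**Figure D1:**
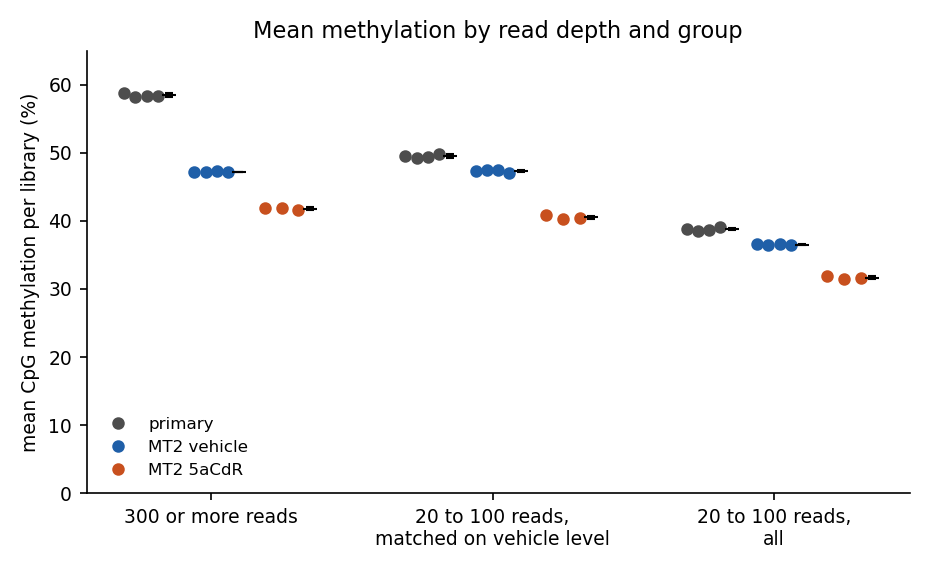
Mean CpG methylation (%) of each library (points) with the group mean and SD (black bars), for the deep CpGs, for CpGs of 20 to 100 reads matched on vehicle level, and for all CpGs of 20 to 100 reads. The deep CpGs are at 58.5% in primary cells, 47.2% with vehicle and 41.8% after 5aCdR, and the matched CpGs at 49.5%, 47.3% and 40.5%.

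Deep and shallower CpGs of the same class of 5aCdR level were set side by side. Since the class is itself an MT2 level, low classes favour a negative and high classes a positive difference in both sets, and no test by class is given. In these classes, deep CpGs of 20 to 40% were at 57.0% ± 0.281 (SD, n = 4) in primary cells and 32.6% ± 0.0513 (SD, n = 4) with vehicle. That is a difference of -24.3 points over 319 CpGs, where the shallower CpGs of the same class differed by -8.21 points. At 5 to 20% the differences were -22.5 points over 329 deep CpGs and -10.6 points at shallower ones. At 80 to 95% both sets were higher in MT2, by 4.49 points over 249 deep CpGs and by 7.35 points at shallower ones.

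The distribution of levels differed as well. The share of deep CpGs between 5 and 20% was 4.80% to 5.80% in the primary libraries and 15.4% to 16.6% in the vehicle libraries. The share between 80 and 95% was 23.2% to 24.9% in primary cells and 12.6% to 13.8% with vehicle. Neither pair of ranges overlapped, and both differences passed the test (exact permutation, p = 0.0286, adjusted over the 5 classes 0.0357). The share at 95% or more was 11.4% ± 1.25 (SD, n = 4) in primary cells and 12.4% ± 0.836 (SD, n = 4) with vehicle, which did not pass (exact permutation test, p = 0.229).

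**Figure D2:**
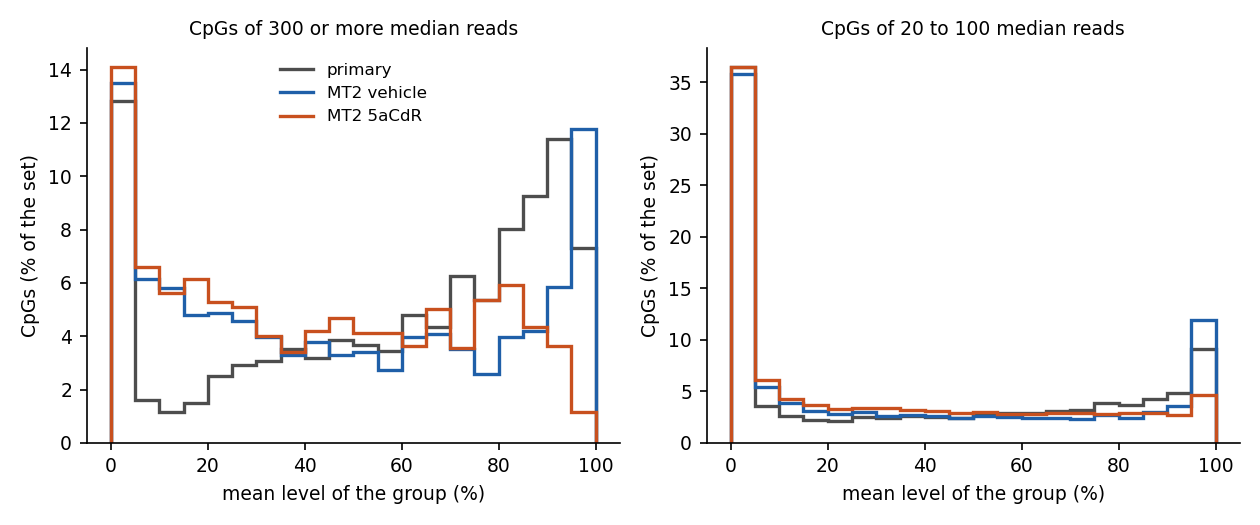
Distribution of the mean level (%) in each group, as the percent of CpGs per class of 5 percentage points, for the 1793 deep CpGs (left) and the 68820 CpGs of 20 to 100 reads (right). Among deep CpGs, primary cells have few between 5 and 20% and a peak around 90%, MT2 with vehicle has many at 5 to 20% and a peak at 95% and above, and that last peak is missing after 5aCdR.

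Local CpG density went with the size of the difference. The counts of CpGs nearby are those within 250 bp on each side and include the CpG itself. At 816 deep CpGs with 1 to 4 covered CpGs nearby, the levels were 67.0% ± 0.518 (SD, n = 4) in primary cells and 51.2% ± 0.167 (SD, n = 4) with vehicle, -15.8 points. At 5 to 9 CpGs nearby the difference was -11.3 points and at 10 to 19 it was -5.30 points (exact permutation tests, adjusted p = 0.0381 for each). At 174 CpGs with 20 or more nearby, the level with vehicle was 21.5% ± 0.365 (SD, n = 4). Primary cells had 20.0% ± 1.27 (SD, n = 4) there, and the exact permutation test was not passed (p = 0.0571). The shallower CpGs of these 4 classes differed by -7.49, -3.21, 0.782 and 1.80 points.

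Single CpGs were tested next. A quasi-binomial model with 1 term for the group, its dispersion moderated across all CpGs with limma along a trend in depth, called 631 of the 1793 deep CpGs lower in MT2 with vehicle (35.2%) and 106 higher (5.91%). Over all 91269 CpGs tested, 6.08% were called lower and 2.93% higher. limma on the log ratio of methylated to unmethylated reads, with 1 added to each count, called 139 deep CpGs. Of these, 81 were lower and 57 higher in mean level, so both the count and the balance of directions depended on the model. Near no or full methylation that ratio also moves with read depth, and the part of depth in these calls was not tested. The libraries of the groups did not overlap at 672 deep CpGs that were lower (37.5%, against 7.32% of CpGs with 10 or more reads in all libraries) and at 123 that were higher (6.86%, against 3.12%). The called share moved with depth, from 352 of 1005 CpGs at 300 to 500 reads to 93 of 169 at 2000 or more, and its part in the excess over all CpGs was not tested. The median difference over the deep CpGs was -6.16 points, and it was 0 over all CpGs tested.

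Of the called CpGs, 425 were lower by at least 25 points and 44 higher by at least 25 points. The 631 lower CpGs lay in 449 loci on 214 scaffolds. Their median level was 68.6% in primary cells, 28.1% with vehicle and 26.0% after 5aCdR. The 106 higher CpGs, in 89 loci on 65 scaffolds, had medians of 49.5%, 91.7% and 73.4%.

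The 5 largest falls named here, at most 1 per locus, were of 72.2 to 75.8 points. The CpG at 1664817 of KB708315.1 was at 93.3%, 88.6%, 76.0% and 80.2% in the primary libraries and at 16.7%, 8.77%, 4.39% and 5.19% in the vehicle libraries. All 4 fetuses were high and all 4 plates low, a difference of -75.8 points (quasi-binomial test moderated with limma, adjusted p = 3.44e-07). It was at 5.80% ± 2.17 (SD, n = 3) after 5aCdR, near the vehicle level.

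The CpG at 4594255 of KB708186.1 was at 73.7%, 75.5%, 65.5% and 74.3% in primary cells and at 0%, 0%, 0.463% and 0% with vehicle. After 5aCdR it was at 9.65%, 4.36% and 20.8%, which did not pass the test against vehicle (quasi-binomial test with limma, adjusted p = 0.241). On the same scaffold, the CpG at 8446447 was at 87.8% ± 9.22 (SD, n = 4) in primary cells and 13.6% ± 11.2 (SD, n = 4) with vehicle. At 1191445 of KB708336.1 primary cells had 78.2% ± 8.22 (SD, n = 4) and vehicle 3.81% ± 2.59 (SD, n = 4). At 8990635 of KB708152.1 they were 95.9% ± 5.27 (SD, n = 4) and 20.6% ± 14.3 (SD, n = 4), where vehicle replicate 1 was at 42.0% and the other 3 plates at 13.2% to 13.7%.

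The 5 largest rises were of 66.4 to 80.2 points. The CpG at 2229847 of KB708321.1 was at 24.0%, 14.1%, 15.6% and 16.1% in primary cells and at 99.9%, 90.6%, 100% and 100% with vehicle. It was nearly fully methylated in MT2 with vehicle (adjusted p = 4.76e-07 against primary cells, quasi-binomial test with limma) and was at 94.8% ± 3.73 (SD, n = 3) after 5aCdR. The CpG at 521285 of KB708355.1 was at 14.2%, 14.8%, 0.707% and 9.70% in primary cells and at 92.3%, 83.8%, 94.5% and 84.9% with vehicle. At 767237 of KB708344.1 primary cells were at 28.1% ± 10.8 (SD, n = 4) and vehicle at 99.6% ± 0.305 (SD, n = 4). The remaining ones, at 1939449 of KB708142.1 and 24361220 of KB708139.1, were at 87.9% and 91.6% with vehicle and at 17.7% and 25.2% in primary cells.

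The second comparison set 5aCdR against vehicle in MT2 cells. Methylation at deep CpGs fell in all 3 treated plates, and how the fall in points compared with shallower CpGs depended on the matching. The mean level was 41.9%, 41.9% and 41.5% after 5aCdR, below each vehicle library. The group mean was 41.8% ± 0.201 (SD, n = 3), which is -5.42 points from the vehicle mean of 47.2% ± 0.0580 (SD, n = 4), or -11.5% of it (exact two-sided permutation test, p = 0.0286, the smallest that 35 splits allow; adjusted p = 0.0286).

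Shallower CpGs matched on vehicle level went from 47.3% to 40.5% ± 0.258 (SD, n = 3). With classes taken from the primary libraries, which are neither side of this comparison, the matched CpGs differed by -6.87 points, a relative change of -13.2%. Matching on primary level left these CpGs at 52.1% with vehicle, above the 47.2% of deep CpGs. Deep CpGs differed from them by 1.45 points less in the direction of loss (exact permutation test, p = 0.0286, adjusted p = 0.0286). This value depended on the CpGs taken: it was 0.752 points with at least 20 reads in every library and 3.88 points where both strands were listed. Without matching it was -0.556 points, in the other direction. As a relative change the order did not turn: unmatched shallower CpGs changed by -13.3%, from a vehicle mean of 36.5%, and deep CpGs by -11.5%.

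By class of primary level, the sets differed most at intermediate levels. At deep CpGs of 20 to 40% in primary cells, vehicle was at 22.1% ± 0.343 (SD, n = 4) and 5aCdR at 19.4% ± 0.0725 (SD, n = 3), a difference of -2.72 points against -5.77 at shallower CpGs. At 40 to 60% the differences were -3.05 and -7.09 points. At 80 to 95% they were -9.15 and -8.87 points, and at 95% or more -9.47 and -9.08 points. The vehicle levels of the 2 sets were not equal within these classes: at 40 to 60% they were 32.3% at deep and 45.3% at shallower CpGs. Of the 7 classes of deep CpGs, 6 passed the exact permutation test (adjusted p = 0.0333), and CpGs below 5% in primary cells did not (p = 0.4).

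**Figure D3:**
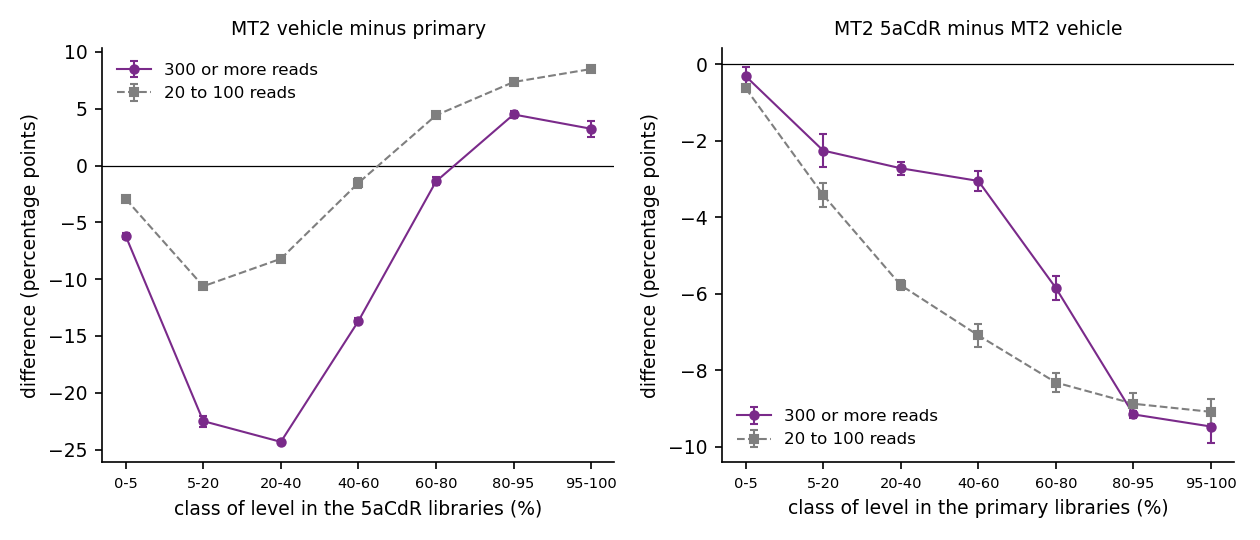
Difference in mean level (percentage points; bars are the standard error of the difference over libraries) by class of level, for deep CpGs (circles) and CpGs of 20 to 100 reads (squares). Left, vehicle minus primary by class of 5aCdR level, with -24.3 points at deep CpGs of 20 to 40%; right, 5aCdR minus vehicle by class of primary level, with -3.05 points at deep and -7.09 points at shallower CpGs of 40 to 60%.

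Among deep CpGs the relative change was -11.7% at 300 to 500 reads, -12.5% at 500 to 1000, -10.9% at 1000 to 2000 and -7.74% at 2000 or more. The last class held 169 CpGs of 68 loci, and its difference was -3.36 points against -5.88 at 300 to 500 reads. Each of the 4 classes passed the exact permutation test (adjusted p = 0.0286), and differences between the classes were not tested.

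Fewer CpGs were at or near full methylation. The share of deep CpGs at 95% or more was 11.4% to 13.3% in the vehicle libraries and 1.90% to 2.68% in the 5aCdR libraries, a difference of -10.2 points (exact permutation test, p = 0.0286, adjusted p = 0.0476). Shallower CpGs differed by -10.3 points from a higher share, 21.8% ± 2.79 (SD, n = 4) with vehicle and 11.5% ± 0.595 (SD, n = 3) after 5aCdR. Their vehicle share was 23.9% and 24.6% in replicates 2 and 3, the libraries of fewest reads. In replicates 1 and 4 it was 19.2% and 19.6%, and the part of library depth in the difference was not tested. By group means, 211 deep CpGs were at 95% or more with vehicle and 21 after 5aCdR. The share between 20 and 80% was 42.9% to 44.6% with vehicle and 51.7% to 52.3% after 5aCdR (exact permutation test, adjusted p = 0.0476). Below 5% lay 14.7% ± 0.480 (SD, n = 4) of the CpGs with vehicle and 14.8% ± 0.286 (SD, n = 3) after 5aCdR (exact permutation test, adjusted p = 1).

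At single CpGs, 59 of the 1793 (3.29%) were called lower after 5aCdR and 0 higher, where 0.0558% of 155911 tested CpGs were called lower and 0.000641% higher. At an unadjusted p below 0.05 the quasi-binomial test gave 497 lower and 18 higher. No share over all tested CpGs was taken at this limit, so these counts cannot be called particular to deep CpGs. limma on the log ratio of methylated to unmethylated reads called 0 in either direction. The 59 lay in 45 loci on 36 scaffolds. The called share was 1.49% at 300 to 500 reads and 10.7% at 2000 or more, and the part of depth in the excess over all CpGs was not tested. The libraries did not overlap at 421 deep CpGs that were lower (23.5%, against 5.86% of all common CpGs) and 18 of 1793 that were higher (against 0.91%). The called CpGs were highly methylated, with a median of 94.1% with vehicle, 67.8% after 5aCdR and 89.6% in primary cells. Without 5aCdR replicate 1, 2 or 3 the count was 8, 10 or 8, and without vehicle replicate 1 or 4 it was 35 or 36.

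The 5 largest falls after 5aCdR were of 36.8 to 42.1 points. The CpG at 803277 of KB708141.1 was at 95.1%, 100%, 100% and 100% with vehicle and at 60.2%, 59.4% and 50.4% after 5aCdR. The treated plates were all far below the vehicle plates (adjusted p = 0.00122, quasi-binomial test with limma), and the fetuses were spread between 62.9% and 96.0%. The CpG at 4294846 of KB708191.1 was at 97.1%, 99.0%, 94.9% and 99.6% with vehicle and at 52.3%, 60.2% and 69.1% after 5aCdR (adjusted p = 0.00371 in the same test moderated with limma). The CpGs at 18778540 of KB708143.1, 750580 of KB708308.1 and 19384733 of KB708154.1 went from 97.6%, 96.6% and 94.1% to 59.5%, 58.7% and 57.3%. None of these 5 was called when a single 5aCdR plate was left out, whichever it was, and 4 or 5 were called when a vehicle plate was.

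**Figure D4:**
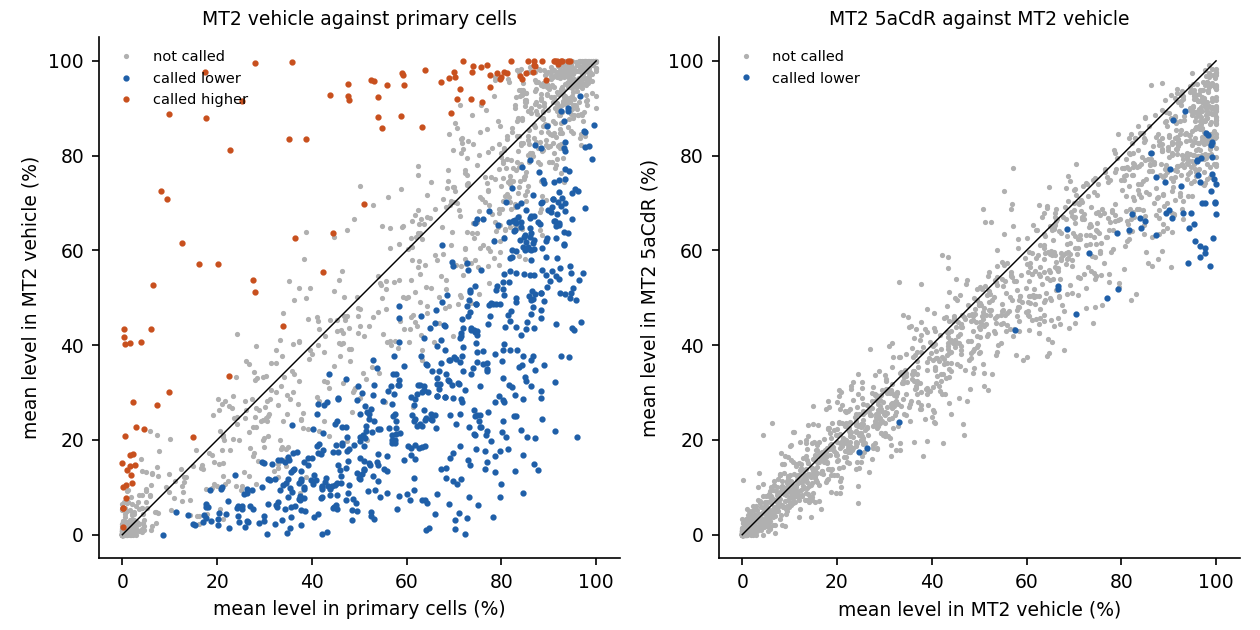
Mean level (%) of each of the 1793 deep CpGs (points), MT2 with vehicle against primary cells (left) and MT2 after 5aCdR against vehicle (right), with CpGs called at an adjusted p below 0.05 in colour and the line of equal levels. On the left, 631 called CpGs lie below the line and 106 above it; on the right, 59 lie below it, most of them near full methylation with vehicle.

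Against primary cells, MT2 cells after 5aCdR were lower still. The difference was -16.7 points, from 58.5% to 41.8% (exact permutation test, p = 0.0286, adjusted p = 0.0286), and -7.71 points relative to shallower CpGs matched on vehicle level, itself an MT2 level (p = 0.0286 in the same exact test). With classes of primary level, deep CpGs stood -3.42 ± 0.211 points (SD, n = 3) from the matched CpGs after 5aCdR. In primary cells they then stood -0.00728 ± 0.151 points (SD, n = 4) from them. The model called 789 deep CpGs lower (44.0%) and 46 higher (2.57%), where 4.61% and 0.971% of 170097 tested CpGs were called. limma on the log ratio called 58, of which 38 were lower and 19 higher in mean level. The libraries did not overlap at 994 lower (55.4%, against 13.1%) and 81 higher deep CpGs (4.52%, against 3.28%). This comparison shares its libraries with both others.

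The deepest locus, at 2164 to 2227 of scaffold KB710729.1, held 2 CpGs at a median of 70706 reads. Its mean level was 79.5%, 78.8%, 79.6% and 78.2% in the primary libraries, 51.1%, 51.3%, 49.6% and 51.1% with vehicle, and 49.7%, 50.3% and 50.4% after 5aCdR. Primary cells were far above all 7 MT2 plates, and both CpGs were called lower in MT2. The difference of 5aCdR from vehicle was -0.648 points and neither CpG was called, although the SD between plates was only 0.806 and 0.402 points (n = 4 and 3). This locus held 2.31% ± 0.271 (SD, n = 4) of the reads over common CpGs with vehicle and 1.85% ± 0.248 (SD, n = 4) in primary cells.

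The next locus by depth, at 10484 to 10509 of KB708705.1, behaved otherwise. Its 4 CpGs, at a median of 37941 reads, averaged 87.4%, 87.0%, 87.2% and 86.8% in primary cells, 80.8%, 80.9%, 79.95% and 80.2% with vehicle, and 66.4%, 66.0% and 67.1% after 5aCdR. The 3 groups were fully apart, and all 4 CpGs were called lower in both steps. The difference was -6.62 points from primary cells to vehicle and -13.9 points from vehicle to 5aCdR. At 7258390 to 7258475 of KB708165.1, 10 CpGs at a median of 20809.5 reads averaged 83.7% ± 0.682 (SD, n = 4), 78.2% ± 0.432 (SD, n = 4) and 75.4% ± 1.09 (SD, n = 3). There 5 CpGs were called lower in MT2 with vehicle than in primary cells and 3 lower after 5aCdR than with vehicle.

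The locus with the most CpGs, 40 at 57472 to 58075 of KB708128.1, was lowly methylated and uneven. The levels of its CpGs ranged from 5.69% to 55.4% with vehicle and from 5.12% to 61.7% in primary cells. The mean was 26.6% ± 1.07 (SD, n = 4) with vehicle, 24.4% ± 0.0403 (SD, n = 3) after 5aCdR and 28.3% ± 5.39 (SD, n = 4) in primary cells, where the fetuses ranged from 21.2% to 34.1%. Against primary cells, 4 CpGs were called lower and 4 higher with vehicle, and 0 of 40 were called after 5aCdR against vehicle, with 32 of 40 lower.

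At 8909206 to 8909282 of KB708154.1, 12 CpGs within less than 80 bp showed both changes at neighbouring positions. The CpG 59 bp from the first was at 87.1% ± 1.43 (SD, n = 4) in primary cells, 50.8% ± 3.92 (SD, n = 4) with vehicle and 47.1% ± 2.74 (SD, n = 3) after 5aCdR. It was called lower in MT2 than in primary cells (quasi-binomial test with limma, adjusted p = 5.75e-07) and did not pass after 5aCdR (adjusted p = 0.819). The CpG 24 bp from the first was at 88.7% ± 2.65 (SD, n = 4), 89.2% ± 0.866 (SD, n = 4) and 74.5% ± 2.83 (SD, n = 3). It did not pass against primary cells and was called lower after 5aCdR (quasi-binomial test with limma, adjusted p = 0.0280). Over the locus, 7 CpGs were called lower with vehicle than in primary cells, 2 lower after 5aCdR than with vehicle, and 12 lower after 5aCdR than in primary cells.

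**Figure D5:**
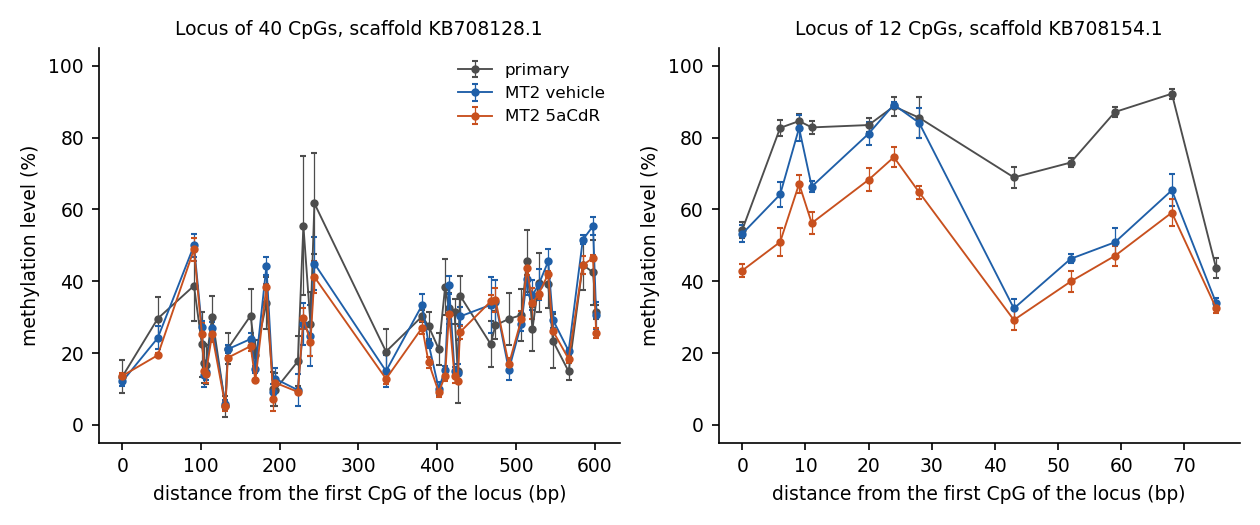
Methylation level (%; points are group means, bars the SD over libraries) by distance from the first CpG (bp) in the locus of 40 CpGs on KB708128.1 (left) and that of 12 CpGs on KB708154.1 (right). On the right, vehicle follows primary cells at 20 to 28 bp and lies far below them from 43 to 68 bp, where 5aCdR lies close to vehicle.

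At 7221 to 7355 of KB708967.1, 12 CpGs averaged 64.99%, 64.2%, 60.9% and 62.1% with vehicle and 48.7%, 46.1% and 48.1% after 5aCdR. All 12 were lower after 5aCdR, by 15.4 points on average, and 0 of them passed the test singly. Primary cells were at 59.0% ± 1.52 (SD, n = 4), and 0 of the 12 CpGs were called between vehicle and primary cells. Among the 161 loci with 3 or more CpGs, all CpGs were lower after 5aCdR in 69. All were lower with vehicle than in primary cells in 69, and all were higher in 15. Of single deep CpGs, 74.3% were lower after 5aCdR, and 66.9% were lower and 31.8% higher with vehicle than in primary cells. Whether loci moved as a whole beyond these shares was not tested. Within a locus of 3 or more CpGs the vehicle levels had a median SD of 16.5 points over its CpGs, and the means of the loci had an SD of 25.2 points.

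Read depth chose these CpGs, with 7 of the 11 libraries from MT2, so shares of reads are given as a description without a test. The share of a library's CpG reads that fell on deep CpGs was 7.09% ± 0.385 (SD, n = 4) with vehicle, 6.46% ± 0.138 (SD, n = 3) after 5aCdR and 6.75% ± 0.425 (SD, n = 4) in primary cells. As a share of the reads over CpGs common to all libraries it was 28.9%, 29.3% and 28.1%.

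A locus deep in MT2 alone could pass the depth limit and a locus deep in primary cells alone could not, so the balance of directions below is favoured by the choice. Of 1030 loci, 45 had at least 1.5 times as many reads per common CpG read in vehicle as in primary cells without overlap of the libraries, and 7 had 1.5 times fewer. No such count was made at shallower CpGs, so these numbers cannot be called particular to deep CpGs. The most extreme deep locus, named after its values were seen, was a CpG at 23045368 of KB708142.1. It had 345 to 827 reads with vehicle and 19 to 44 in primary cells, 19.04 times the share, at levels of 3.21% and 4.57%. It met the depth limit through the MT2 libraries. The 83 CpGs of the 45 loci were at 64.5% ± 1.73 (SD, n = 4) in primary cells and 40.6% ± 0.830 (SD, n = 4) with vehicle. Of the 83, 53 were called lower and 1 higher, where 35.2% and 5.91% of all deep CpGs were. These loci were picked by their reads, and the part of that choice in their levels was not tested. The 1695 CpGs outside the 52 loci were at 58.3% ± 0.295 (SD, n = 4) and 47.5% ± 0.0714 (SD, n = 4), a difference of -10.7 points, close to that over all deep CpGs. Of these 1695 CpGs, 577 were called lower and 104 higher, where 6.08% and 2.93% of all tested CpGs were. Scaffold KB708147.1 held 12 of the 83 CpGs. Its 29 deep CpGs were at 82.8% ± 0.658 (SD, n = 4) in primary cells, 68.2% ± 1.39 (SD, n = 4) with vehicle and 60.8% ± 0.278 (SD, n = 3) after 5aCdR. The 27 deep CpGs of KB708184.1 were at 51.4%, 48.1% and 42.0%. The 139 deep CpGs on scaffolds listed to less than 20 kb differed by -12.0 points between vehicle and primary cells and by -6.60 points between 5aCdR and vehicle, and those on longer scaffolds by -11.2 and -5.32 points.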

How the data were processed

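Reduced representation bisulfite libraries of 11 samples were analysed: 4 MT2 with vehicle, 3 MT2 with 5aCdR and 4 primary. Per the submitters' processing notes, the tools were Bismark 0.22.1, Bowtie2, methylKit 1.10.0, R 3.6.1, Trim Galore 0.5.0 and bcl2fastq 2.20.0.42; the genome build and any removal of duplicates are not given in the sources used here. The deposited files list, per the file headers, a read count (coverage, 10 or more) for each CpG strand. They also give the deposited percent of reads called C or T, to 2 decimals.

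Methylated reads were rebuilt as coverage times percent, rounded, and strands were summed. Levels were averaged per library and compared with exact two-sided permutation tests. Single CpGs were tested with a quasi-binomial model (dispersion at least 1, moderated with limma 3.58.1 in R 4.3.3 along log depth) and Benjamini-Hochberg adjustment over all CpGs tested, with calls at 0.05. The fit was tested on simulated data of the real depths, with 100 deep CpGs of intermediate level changed by 10 points and 100 by 20. For 5aCdR against vehicle, vehicle against primary and 5aCdR against primary it recovered 6%, 3% and 8% of the 10-point changes. Of the 20-point changes it recovered 39%, 43% and 24%, and it called 0 of 1593 unchanged deep CpGs. A CpG that was not called is thus not shown to be unchanged. The simulated dispersion followed the model's own trend in depth, without variation between CpGs of equal depth. The absence of false calls therefore does not cover such variation, and CpGs near full methylation were not among those changed. Python 3.11.15, numpy 2.4.6, scipy 1.17.1 and pandas 2.3.3 did the rest. Named CpGs were the 5 largest falls and rises per comparison among called CpGs without overlap, 1 per locus, plus the 3 deepest loci and the 3 with most CpGs. The CpGs, lists and tests were chosen with earlier results of these data known. Equal replicate numbers did not pair samples (correlations of deviations -0.0556 to 0.0172).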

Additional observations from a re-analysis of the deposited data

Results flagged for a closer look

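In 6 of 64 groups of 4 libraries, 1 library lay far from the other 3. Chance gives about 1 in 20 for normally distributed values, a rate that does not apply where the others are tied at 0% or 100%. Vehicle replicate 4 stood at 0.0661 points for deep CpGs minus CpGs matched on vehicle level, where the others were at -0.213 to -0.169. Vehicle replicate 1 was at 95.1% at 803277 of KB708141.1, where the others were at 100%, and at 42.0% at 8990635 of KB708152.1, where the others were at 13.2% to 13.7%. Vehicle replicate 3 was at 0.463% at 4594255 of KB708186.1, where the others were at 0%, and at 49.6% over the locus from 2164 of KB710729.1, where the others were at 51.1% to 51.3%. Vehicle replicate 2 was at 90.6% at 2229847 of KB708321.1, where the others were at 99.9% to 100%.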

How the results depend on the processing

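The mean levels kept their direction under each alternative run. Leaving out 1 library gave -5.49 to -5.31 points for 5aCdR minus vehicle, -16.8 to -16.5 for 5aCdR minus primary and -11.4 to -11.1 for vehicle minus primary. Relative to matched CpGs it gave 1.33 to 1.53, -7.85 to -7.61 and -9.11 to -8.93 points. With 5aCdR involved, such a design cannot go below p = 0.0667 or 0.1 (exact). With the replicate block, whose smallest exact p is 0.25 or 0.125, the means were -5.44, -16.7 and -11.3 points and the matched values 1.504, -7.81 and -9.01 points. Without matching, 5aCdR minus vehicle turned to -0.556 points, and with both strands listed 5aCdR minus primary was -4.45 points. As a share of reads at common CpGs, chosen after seeing the data, the read share differed by 0.356 points for 5aCdR minus vehicle, against -0.623.

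Counts of calls depended on the model. For 5aCdR against vehicle they were 8 with both strands listed, 94 with 20 reads in every library, 1 without moderation, 0 with limma on log ratios, 89 with the dispersion of all 3 groups, 16 with the replicate block (0 where the block fit took its own prior) and 8 to 60 without 1 library. For vehicle against primary they were 1214 and 385 with limits of 200 and 500 reads, 74 with both strands, 457 without moderation, 139 with limma (81 lower, 57 higher) and 522 with the block and its own prior. For 5aCdR against primary they were 1309 and 444, 86, 359 and 58 in the same order (with limma, 38 lower and 19 higher), 0 with the block and its own prior, and 528 to 797 without 1 library. The limits of 200 and 500 reads and the demand for both strands change the number of CpGs counted (to 3477, 788 and 183), and leaving out a library removes samples; the cause of the other shifts was not tested. All 10 CpGs named for vehicle against primary stayed called in each of these fits in which they were looked up. The block fit with its own prior was not among those. They were picked as the largest called differences in the same data, which favours this outcome.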
